A study of Mus musculus with 72 samples.

Results

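Neurotrophins are secreted growth factors that keep neurons alive, guide their processes and adjust their synapses. Each binds a tyrosine kinase receptor of the Trk family, brain-derived neurotrophic factor acting mainly through TrkB and neurotrophin 3 mainly through TrkC, and all of them, above all as uncleaved precursors, also bind the p75 receptor. In the brain TrkB and TrkC are made by neurons and, as forms without a kinase, by glia, whereas in the heart the family is known for its part in the growth of autonomic nerves and blood vessels. The transcripts described here are the receptors Ntrk2 (TrkB), Ntrk3 (TrkC) and Ngfr (p75) and the ligands Bdnf and Ntf3 (neurotrophin 3). These 5 genes were taken by name from the 53715 gene identifiers of the count files, and each was found under its Ensembl identifier.

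RNA was sequenced from 18 adult male mice of 18 weeks, 6 each of Gnb5-/-, Gnb5+/- and Gnb5+/+, on a C57BL/6J background. The mutant allele lacks exon 3 of Gnb5, which encodes a G protein beta subunit, and the deletion is carried by every cell of the body from conception. Atria and ventricles were sampled in the 3 genotypes, and cerebellum, hippocampus and cerebral cortex in Gnb5-/- and Gnb5+/+ mice, giving 72 libraries in 12 groups of 6. Each library came from a whole tissue of a single mouse, so fewer cells of a type and less RNA per cell cannot be told apart in any value below. The design asks how the loss of Gnb5 bears on the transcripts of each tissue.

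Between 29204390 and 48807435 reads per library were counted on genes. Gnb5 itself lay between 26.5 and 36.9 CPM (the usual unit of counts relative to library size, with sizes scaled by the TMM method over all 72 libraries) in Gnb5+/+ hearts, between 13.1 and 21.4 CPM in Gnb5+/- hearts and between 0.84 and 2.93 CPM in Gnb5-/- hearts. In the brain it lay between 71.4 and 114 CPM in Gnb5+/+ and between 8.997 and 16.3 CPM in Gnb5-/- mice, so the targeted gene followed the labels in every tissue. Marker lists of atrial myocardium, ventricular myocardium and cerebellum were each highest, by their summed CPM, in the tissue of that name. The lists of cortical layers and hippocampal subfields were highest among the 3 brain regions in cortex and hippocampus. In the brain 3 libraries, all Gnb5-/-, stood apart by the share of reads that fell outside any gene, namely the cortical ones of mouse 14 (6.86%) and mouse 3 (8.32%) and the cerebellar one of mouse 12 (8.03%). The other brain libraries held between 11.7 and 16.97%. The same 3 libraries had the smallest share of reads on genes that span more than 200 kb, at 5.89, 7.05 and 5.85% in that order. Markers of neighbouring tissue varied as well, in these and in other brain libraries. Choroid plexus markers summed to 640.2 CPM in the cerebellum of mouse 12 against 19.6 to 26.2 in the other Gnb5-/- cerebella. The sums for choroid plexus reached 1215 CPM in the hippocampus of wild-type mouse 7 (26.2 to 427 in the other wild-type hippocampi), 225.2 in Gnb5-/- hippocampus, 225.4 in wild-type cortex and 556 in Gnb5-/- cortex. Cerebellar markers summed to 590 CPM in the cortex of mouse 14 and 327 in that of mouse 3, against 179 to 222 in the other Gnb5-/- cortices. In cortex and cerebellum, fold changes, ratios of the receptors and list medians are given with and without the 3 libraries of few reads outside genes. Cortical Bdnf and Ntf3, and differences of effect that involve cortex, are exceptions, given without mouse 14 but not without mouse 3.

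The members differ in size. On GRCm38 with the GENCODE M21 annotation, Ntrk2 (ENSMUSG00000055254) lies on the plus strand of chromosome 13 from 58806569 to 59133970 and Ntrk3 (ENSMUSG00000059146) on the minus strand of chromosome 7 from 78175959 to 78738012, so both span more than 200 kb. Ngfr (ENSMUSG00000000120) lies on the minus strand of chromosome 11 from 95568818 to 95587735, Bdnf (ENSMUSG00000048482) on the plus strand of chromosome 2 from 109674700 to 109727007, and Ntf3 (ENSMUSG00000049107) on the minus strand of chromosome 6 from 126101412 to 126166910. Reads were counted over all exons of a gene, which sum to 19292, 30170, 3446, 6217 and 1714 bases in the order Ntrk2, Ntrk3, Ngfr, Bdnf and Ntf3. A count of Ntrk2 or Ntrk3 therefore adds up the forms with and without a kinase, and a count of Bdnf adds up transcripts from all of its starts. Bdnf shares 896 exon bases (14.4% of its exons) with the antisense gene Gm45346, which had at most 25 counts in any library.

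The promoters of these genes are shown because their starts differ in number and composition while the counts give only the sum per gene. RefSeq, on GRCm38.p6, held 7 starts for Bdnf, 2 for Ntf3, 1 for Ngfr and 1 for Ntrk2. Each sequence below is the 250 bases before a start and touches no annotated exon. It was searched on both strands for the cAMP response element TGACGTCA, its shorter core TGACG, the E-box CACGTG, the GC box GGGCGG and the TATA box TATAAA, and capitals mark a match to any of the first 4.
Ntrk2, chr13:58806319-58806568, + strand: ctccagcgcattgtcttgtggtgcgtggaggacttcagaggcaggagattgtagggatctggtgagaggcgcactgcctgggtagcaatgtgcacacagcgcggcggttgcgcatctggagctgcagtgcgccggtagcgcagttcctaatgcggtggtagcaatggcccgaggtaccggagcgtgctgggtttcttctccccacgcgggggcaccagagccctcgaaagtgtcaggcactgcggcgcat
Bdnf, the first start, chr2:109674450-109674699, + strand: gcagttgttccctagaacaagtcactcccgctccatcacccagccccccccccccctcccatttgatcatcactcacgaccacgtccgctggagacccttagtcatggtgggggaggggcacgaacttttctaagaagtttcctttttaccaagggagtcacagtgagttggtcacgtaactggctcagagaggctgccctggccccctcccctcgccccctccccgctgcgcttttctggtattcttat
Bdnf, the third start, chr2:109692186-109692435, + strand: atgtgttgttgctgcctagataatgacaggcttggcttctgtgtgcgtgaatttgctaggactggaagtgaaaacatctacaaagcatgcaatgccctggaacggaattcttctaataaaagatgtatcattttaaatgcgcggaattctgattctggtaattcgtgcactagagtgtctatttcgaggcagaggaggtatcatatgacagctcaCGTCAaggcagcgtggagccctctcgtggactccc
Ntf3, the downstream start, chr6:126164961-126165210, - strand: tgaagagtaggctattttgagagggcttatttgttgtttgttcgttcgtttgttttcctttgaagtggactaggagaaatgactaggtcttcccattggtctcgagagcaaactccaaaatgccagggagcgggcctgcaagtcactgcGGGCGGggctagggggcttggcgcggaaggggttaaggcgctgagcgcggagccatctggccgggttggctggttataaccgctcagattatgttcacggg
The Ntrk2 window held 62.8% G and C and 19 CpG pairs, against medians of 52.4% and 6 over 32851 mouse promoter windows of this length, and none of the motifs. The first Bdnf window also held none. The third Bdnf window held the short core in its reverse form, CGTCA, a motif present in 17.8% of all windows, and was the only window of the 7 to hold it. The full element TGACGTCA occurred in 1.55% of all windows and in none of the 11 windows of these 4 genes. No window of Ntrk3 was searched. The downstream Ntf3 window held a GC box, as did 32.7% of all windows, 2 of the 7 Bdnf windows, the window of Ngfr and the other window of Ntf3, which also held an E-box (6.02% of all windows). These matches describe the letters alone.

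In wild-type mice the members fell into 2 patterns, with both Trk receptors far higher in brain than in heart and the ligands spread over heart and brain. Ntrk2 was lowest in ventricles (1.40 to 2.35 CPM, median 1.78) and atria (2.14 to 6.38, median 2.72), and lay between 321 and 348 CPM in cerebellum, between 511 and 555 in hippocampus and between 599 and 677 in cerebral cortex. The mean was 628 CPM in cortex and 1.86 in ventricles, a ratio of 338. Ntrk3 was also lowest in ventricles (1.06 to 2.42 CPM, median 1.87) and atria (1.94 to 3.42, median 2.02). Its order within the brain ran the other way from that of Ntrk2, with 271 to 357 CPM in cerebellum, 231 to 286 in hippocampus and 198 to 220 in cortex. No cardiac library of either receptor came near a brain library, and the ratio of the Ntrk3 mean in cerebellum to that in ventricles was 181.

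**Figure D1:**
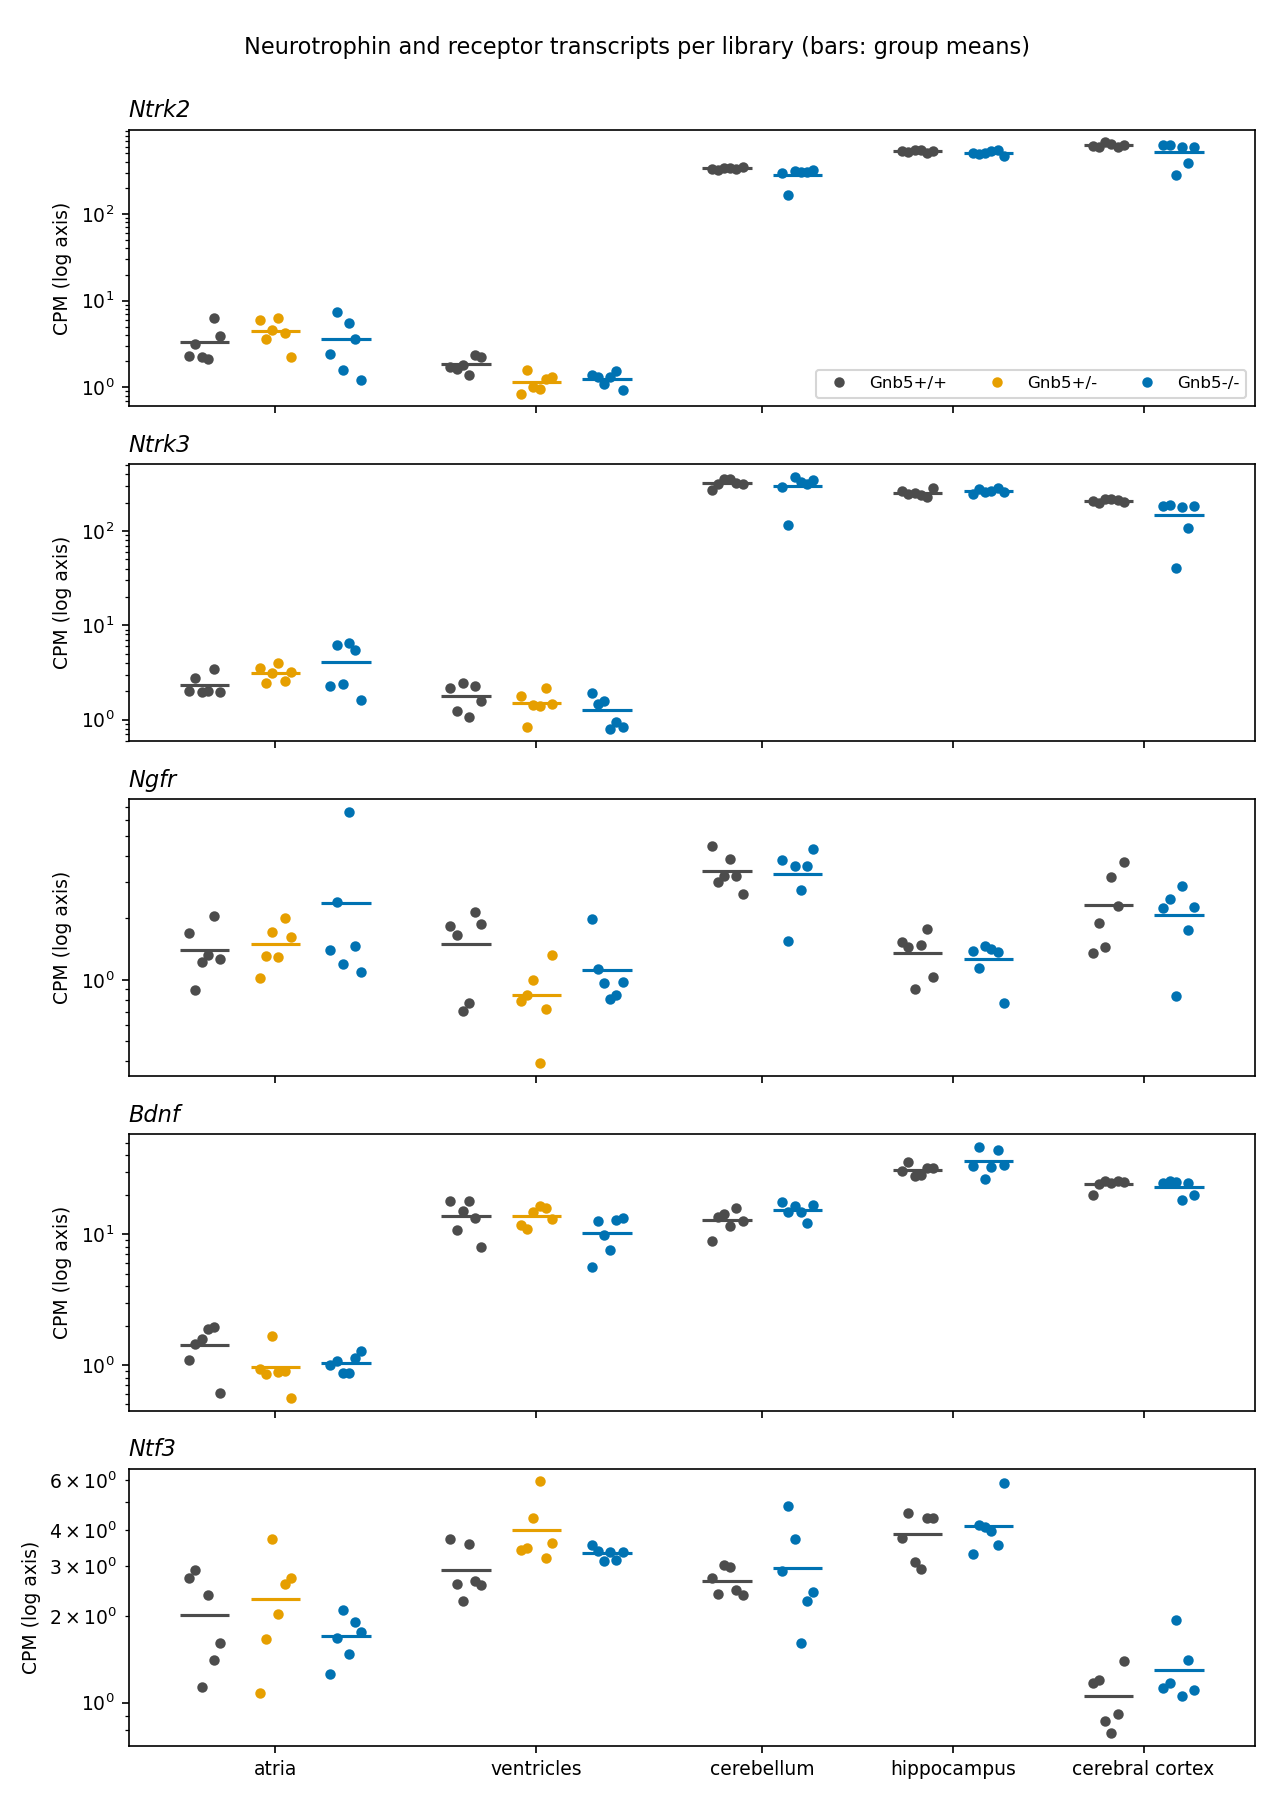
Transcript level of each member in every library, in CPM on a log axis, by tissue and genotype, with 1 point per mouse and a bar at the group mean. The Trk receptors Ntrk2 and Ntrk3 lie far higher in brain than in heart, Bdnf is lowest in atria, and Ngfr and Ntf3 vary less between tissues, with 3 libraries of low Gnb5-/- values of Ntrk2 and Ntrk3 in cerebellum (mouse 12) and cortex (mice 14 and 3).

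Tissues of the wild-type mice were compared in pairs with edgeR's quasi-likelihood test over 30 libraries, with the mouse as a block. Such pairs differed for most genes, with 53.6% of all genes passing an adjusted p of 0.05 between atria and ventricles, between heart and brain 87.3, 87.6 and 88.1% for atria and 87.3, 87.8 and 88.3% for ventricles against cerebellum, hippocampus and cortex, 70.8 and 71.8% between cerebellum and hippocampus or cortex, and 37.7% between hippocampus and cortex. The members passed in 4 of 5 cases between atria and ventricles, in 3 to 5 of 5 between heart and brain, in 5 of 5 between cerebellum and either forebrain region, and in 4 of 5 between hippocampus and cortex, so their counts stand against a high background. For Ntrk2 the neighbours in the order cortex, hippocampus, cerebellum, atria, ventricles all passed except hippocampus against cortex (log2 fold change -0.22, 95% CI -0.48 to 0.036, adjusted p = 0.172). With those 2 tissues fitted alone that pair passed as well (adjusted p = 1.9e-05). For Ntrk3 all neighbours in the order cerebellum, hippocampus, cortex, atria, ventricles passed. Atria against ventricles did so narrowly (log2 fold change 0.44, adjusted p = 0.0326, and 0.0512 by DESeq2), and the smallest step was that from hippocampus to cortex (log2 fold change 0.30, 95% CI 0.098 to 0.50, adjusted p = 0.0174, and 0.0501 by DESeq2).

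Ngfr, the p75 receptor, was low in every tissue. Its levels in wild-type mice ran from 2.62 to 4.52 CPM in cerebellum, 1.35 to 3.77 in cortex, 0.70 to 2.14 in ventricles, 0.89 to 2.04 in atria and 0.90 to 1.77 in hippocampus. The highest and lowest means differed by a ratio of 2.51. Cerebellum exceeded cortex (log2 fold change 0.65 ± 0.22 SE, adjusted p = 0.00893), and cortex exceeded hippocampus (0.75 ± 0.23, adjusted p = 0.0111). Summed markers of basal forebrain cholinergic neurons were 6.92 to 21.9 CPM in wild-type cortex. They were 0.67 to 1.26 CPM in wild-type hippocampus and 0.15 to 0.44 in wild-type cerebellum, and their part in the Ngfr values was not tested. Ventricles, atria and hippocampus could not be ranked. The adjusted p was 0.922 for atria against ventricles, 0.784 for atria against hippocampus and 0.666 for ventricles against hippocampus, and the 95% intervals of these log2 differences lay within -0.60 and 0.65. Those intervals do not include the choice of scale, since scaling by library size alone put Ngfr lower in both heart tissues than in hippocampus (log2 fold change -0.55 for atria and -0.89 for ventricles).

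Among the ligands, Bdnf was the member whose level differed most between the heart chambers. Its CPM ran from 0.62 to 1.94 (median 1.52) in wild-type atria and from 7.98 to 18.0 (median 14.2) in wild-type ventricles, so the chambers did not overlap, and the fitted log2 difference of atria against ventricles was -3.24 ± 0.20 (adjusted p = 6.9e-14). Ventricular Bdnf was not separated from that of the cerebellum (8.84 to 15.997 CPM, log2 difference 0.030, 95% CI -0.29 to 0.35, adjusted p = 0.858) on the TMM scale. On the scale of library size alone it was lower than in cerebellum (log2 fold change -1.05, adjusted p = 2.4e-07). That scale moved the median of all genes from -0.27 to -1.33 in this comparison, so Bdnf stood above the median gene on both. Mitochondrial transcripts took 28.1 to 43.5% of the reads of wild-type ventricles and 2.95 to 3.42% of those of wild-type cerebella. Hippocampus had the highest Bdnf (27.8 to 35.4 CPM), followed by cortex (20.0 to 25.4 CPM), a step of 0.39 ± 0.15 on the log2 scale (adjusted p = 0.0382, and 0.0841 by DESeq2).

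Ntf3 was highest in hippocampus (2.94 to 4.60 CPM), intermediate in ventricles (2.26 to 3.72), cerebellum (2.38 to 3.01) and atria (1.14 to 2.91), and lowest in cortex (0.78 to 1.39). Hippocampus and cortex did not overlap (log2 fold change 1.89 ± 0.18, adjusted p = 1.2e-09). Ventricles and cerebellum were not separated (log2 difference 0.023, 95% CI -0.34 to 0.39, adjusted p = 0.906), although library size alone put ventricles lower (-1.05). As with Ngfr, these levels rest on few reads, since Ntf3 had between 39 and 102 counts per wild-type atrial library and between 42 and 74 per ventricular library.

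Levels of different members were compared per kilobase of exon. On this scale both Trk receptors exceeded both ligands in every wild-type brain region, and both ligands were above all 3 receptors in the ventricles. In cortex Ntrk2 had 32.6 ± 1.61 CPM per kb (SD, n = 6), Ntrk3 6.94 ± 0.265, Bdnf 3.87 ± 0.332, Ngfr 0.673 ± 0.282 and Ntf3 0.615 ± 0.138. In ventricles Bdnf had 2.23 ± 0.645, Ntf3 1.69 ± 0.351, Ngfr 0.434 ± 0.177, Ntrk2 0.0965 ± 0.0184 and Ntrk3 0.0593 ± 0.0193. Atria differed from ventricles in that Ntf3 led alone, at 1.18 ± 0.432 CPM per kb, with Bdnf at 0.230 ± 0.0812. The exon length counts every annotated exon base once, so a gene expressed mainly as a short form is underestimated.

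**Figure D2:**
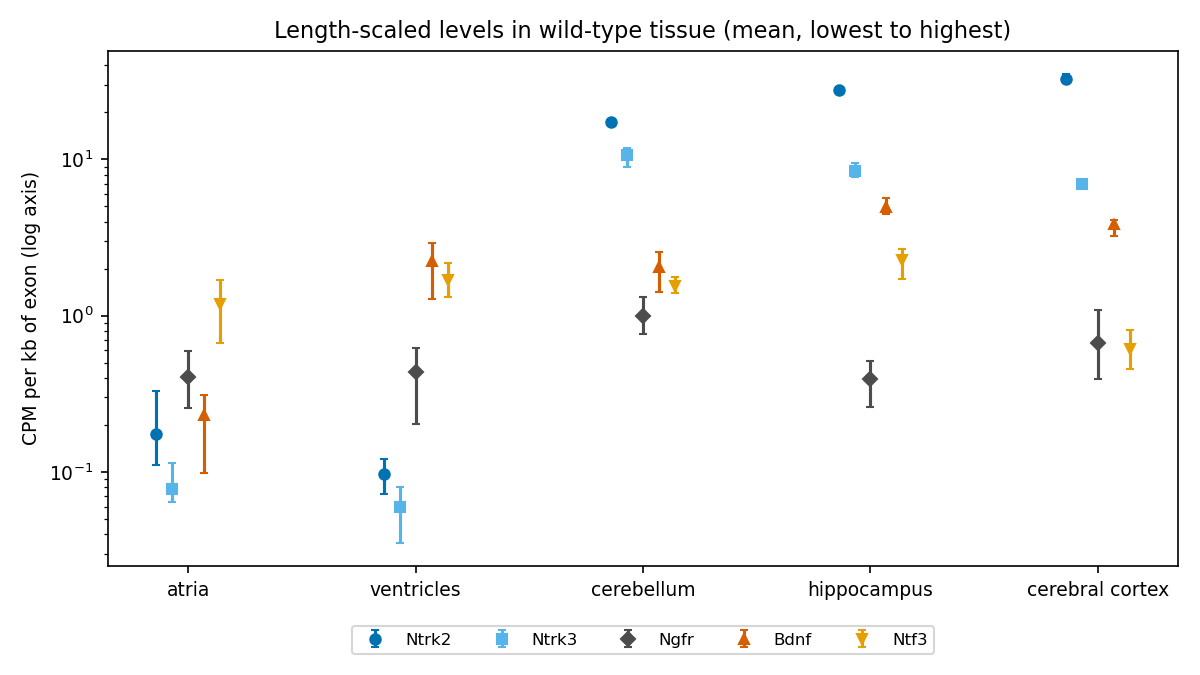
Length-scaled level of the members in wild-type mice, in CPM per kilobase of exon on a log axis, with the mean of 6 mice and a bar from the lowest to the highest. Ntrk2 (circles) and Ntrk3 (squares) lead in the 3 brain regions, whereas Bdnf (upward triangles) and Ntf3 (downward triangles) lead in ventricles and Ntf3 in atria.

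The balance of the TrkB and TrkC transcripts differed between brain regions. The ratio of Ntrk2 to Ntrk3 per kilobase in wild-type mice was 1.64 ± 0.153 in cerebellum, 3.29 ± 0.245 in hippocampus and 4.69 ± 0.161 in cortex, and the ranges of these regions did not overlap. In Gnb5-/- mice it was 1.59 ± 0.334, 3.01 ± 0.179 and 6.23 ± 2.33. The cortical ratio spread in Gnb5-/- mice from 5.00 to 10.97, the highest being that of mouse 14, and every Gnb5-/- cortex lay above the wild-type maximum of 4.90. The ratio contains the cortical Ntrk3 values, whose genotypes did not overlap either (given below), so it is not a separate result. How often other pairs of genes are separated in this way was not computed. Without mouse 14 the cortical ratio was 5.28 ± 0.256, without mice 14 and 3 it was 5.18 ± 0.129, and the cerebellar ratio without mouse 12 was 1.46 ± 0.109. In atria the ratio was 2.18 ± 0.683 in wild-type, 2.23 ± 0.565 in Gnb5+/- and 1.35 ± 0.351 in Gnb5-/- mice, with overlapping ranges. The Bdnf to Ntf3 ratio per kilobase was 0.222 ± 0.129 in wild-type atria and 6.60 ± 1.72 in wild-type cortex. These ratios are a description without a test.

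The genes whose group means over the 12 groups tracked each member most closely were named by a fixed rule, among 16138 protein-coding genes. For Ntrk2 these were Pcyt1b, Syt1 and Dclk1 (Pearson r of log2 CPM 0.999 each), and for Ntrk3 they were Nptx1, Ncoa7 and Avl9 (0.998 each). Bdnf was most like Sobp (0.995), Tmem150c (0.992) and Rtn4r (0.987), and the matches were looser for Ngfr (Rnf121, 0.959, Tm6sf1, 0.940, and Xkr8, 0.939) and Ntf3 (Jph1, 0.942, Sh3bp5, 0.930, and Rasa1, 0.926). Between members, r was 0.989 for Ntrk2 and Ntrk3, 0.636 for Ntrk2 and its ligand Bdnf, and -0.10 for Ntrk3 and its ligand Ntf3. The 12 points share 5 tissues, and any gene with a large step from heart to brain gives a high r with the Trk receptors.

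No member differed between Gnb5-/- and Gnb5+/+ mice in any of the 5 tissues by the test over all genes. By edgeR's quasi-likelihood test, 0 of 5 members passed an adjusted p of 0.05 in atria, ventricles, cerebellum, hippocampus and cortex, against 0.253, 0.188, 0.0817, 0.165 and 0.0557% of all genes tested. DESeq2 also called 0 of 5 in each tissue, with 2 members in atria, 2 in ventricles and 0 in each brain region at an unadjusted p below 0.05. The paper, by its own DESeq2 fit of these libraries, lists Ntrk3 among the genes that differ in Gnb5-/- cortex at an adjusted p below 0.05. That call was not obtained here, and the reason was not tested. At an unadjusted p below 0.05 edgeR had 1 member in atria, 2 in ventricles and 0 in each brain region, a threshold met by 8.15, 4.78, 5.85, 7.7 and 7.39% of all genes in atria, ventricles, cerebellum, hippocampus and cortex. Against backgrounds this low a count of 0 says little of the members, so their values, fold changes and intervals follow one by one. Groups that did not overlap were found for 1 member in cerebellum and 1 in cortex, both lower in Gnb5-/- mice, where 0.537 and 0.223% of all genes were separated downward and 1.14 and 0.495% in either direction. They were found for 0 members in atria, ventricles and hippocampus, where 0.661, 0.552 and 0.694% of all genes were separated in either direction. Upward separation, seen in 0.607% of all genes of the cerebellum, was found for no member. The exact permutation test was run on 45 pairings of a member with a comparison of genotypes, its smallest p is 0.00216 for 6 mice against 6, and its p is given unadjusted.

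**Figure D3:**
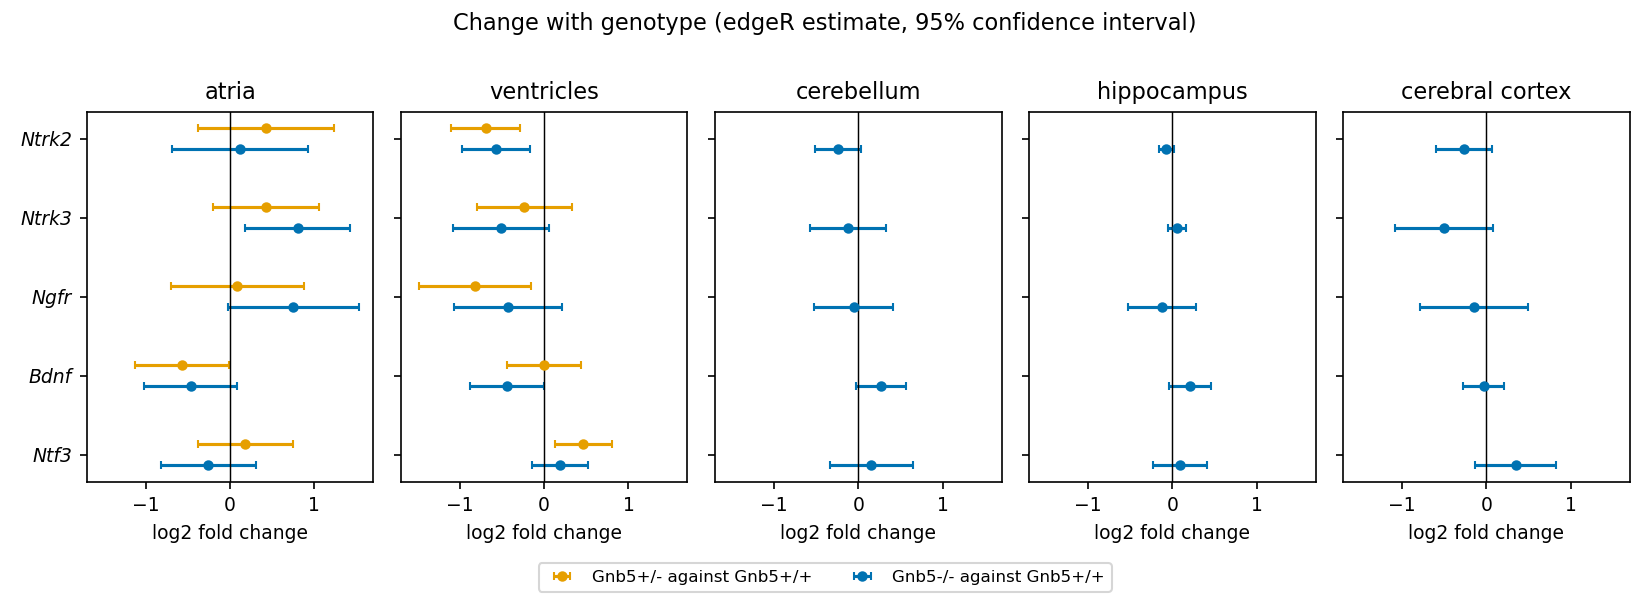
Log2 fold change of each member in Gnb5-/- (blue) and Gnb5+/- (orange) mice against Gnb5+/+ mice, by tissue, as edgeR estimates with 95% confidence intervals. The hippocampal intervals of Ntrk2 and Ntrk3 are the narrowest and lie within -0.16 and 0.17, those of the heart are several times wider, and both Ntrk2 intervals in ventricles lie below 0.

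The receptor gene whose genotypes did not overlap in the cerebral cortex was Ntrk3. The 6 wild-type libraries held 207, 198, 216, 220.2, 211 and 205 CPM, and the 6 Gnb5-/- libraries 185, 188, 40.4 (mouse 14), 178, 107 (mouse 3) and 184 CPM. Every Gnb5-/- value lay below every wild-type value, with means of 147 ± 60.65 and 209 ± 8.0001 (SD, n = 6), and the exact permutation test gave p = 0.00216, the smallest it can give. Such a separation in the downward direction was seen in 0.223% of all genes of the cortex. The fit over all genes did not call Ntrk3 (log2 fold change -0.51 ± 0.27 SE, 95% CI -1.08 to 0.073, adjusted p = 0.474). Because the paper had already listed cortical Ntrk3 from these same libraries, the separation is not an independent result.

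Without mouse 14 the other 5 Gnb5-/- libraries held 168 ± 34.3 CPM. They lay wholly below the wild-type ones, as any part of a separated group must (exact permutation p = 0.00433, the smallest for 5 against 6). The same held for 0.267% of all genes downward and 0.412% upward, or 0.679% in either direction. The fold change was then -0.32 ± 0.12 on the log2 scale, with an adjusted p of 0.775, and 0.121% of all genes were called. Without mice 14 and 3, the other library with few reads outside genes, the 4 remaining Gnb5-/- libraries lay between 178 and 188 CPM (184 ± 3.82), a ratio of 0.878 to the wild-type mean. Their lack of overlap with the wild-type values was again fixed by that of all 6 (exact permutation p = 0.00952, the smallest for 4 against 6). In this selection 0.417% of all genes were separated downward and 0.607% upward. The fold change was -0.19 ± 0.038 (adjusted p = 0.113, with 0.142% of all genes called). The fold change thus went from -0.51 to -0.19 as the 2 libraries were left out, whereas the separation could not be lost by leaving libraries out.

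Those 2 libraries were also low in Ntrk2, which encodes the TrkB receptor. Cortical Ntrk2 was 283 CPM in mouse 14 and 391 in mouse 3, against 589 to 627 in the other 4 Gnb5-/- libraries and 599 to 677 in the wild-type libraries. Over all 6 mice the log2 fold change was -0.27 ± 0.15 (adjusted p = 0.474, exact permutation p = 0.0714), and without both libraries it was -0.053 ± 0.041 (adjusted p = 0.979), with groups that overlapped each time. Summed markers of astrocytes, cells that carry a short form of TrkB, were low in the same libraries, at 2672 CPM in mouse 14 and 3522 in mouse 3 against 4719.8 to 5499.7 in the other Gnb5-/- and 4862 to 5447 in the wild-type cortices. Summed markers of neurons were also lowest there, at 4965 and 5115 CPM against 5717 to 6038.5 in the other 10 cortices. None of the 9 astrocyte or 8 neuronal markers was at 0 in all cortices of a genotype. None passed edgeR's test, with 1 astrocyte and 0 neuronal markers at an unadjusted p below 0.05, and their part in the receptor values was not tested. Neither was that of the share of reads outside genes, which is plotted against both receptors.

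**Figure D4:**
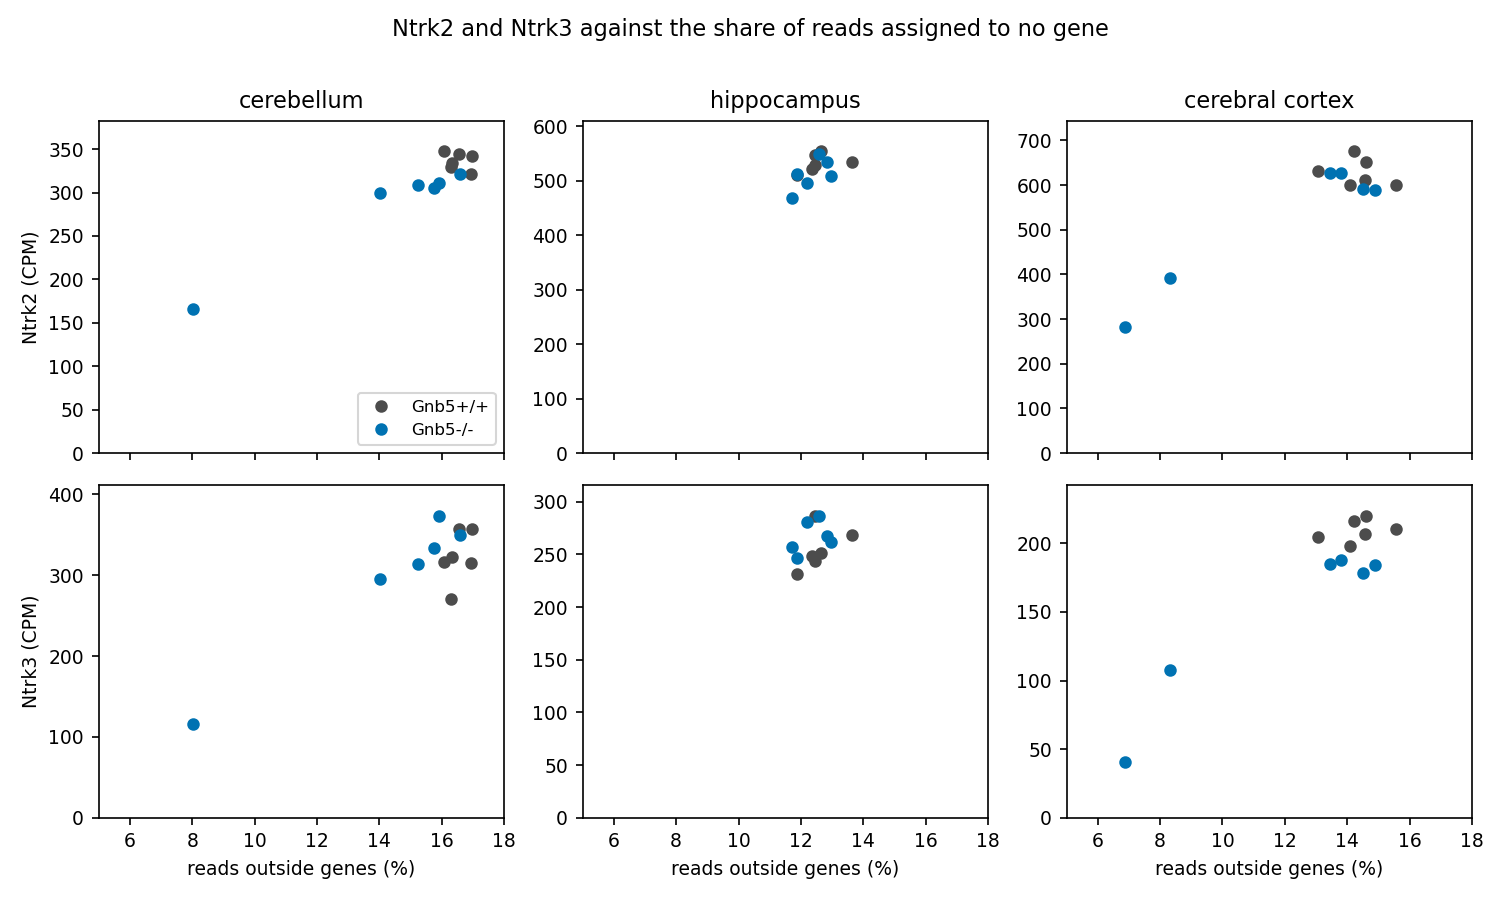
Ntrk2 (top) and Ntrk3 (bottom) in CPM against the percentage of reads outside genes, for each library of cerebellum, hippocampus and cerebral cortex, in Gnb5+/+ (grey) and Gnb5-/- (blue) mice. The 3 libraries under 9% on the horizontal axis, all Gnb5-/-, are low in both receptors, and the remaining cortical Ntrk3 values of Gnb5-/- mice (178 to 188) lie below the wild-type ones (198 to 220.2).

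In the cerebellum the separated receptor was Ntrk2. Wild-type libraries held 329.6, 321.1, 344, 342, 334 and 348 CPM, and Gnb5-/- libraries 299, 166 (mouse 12), 311, 305, 308 and 321.0 CPM. The Gnb5-/- values lay below the wild-type ones without overlap (means 285 ± 58.7 and 337 ± 10.2, exact permutation p = 0.00216), as did those of 0.537% of all genes, although the highest Gnb5-/- value (321.02) all but met the lowest wild-type value (321.07). Without mouse 12 the mean was 309 ± 8.005 CPM, a ratio of 0.918 to the wild-type mean, and 0.799% of all genes were separated downward. The exact permutation p of 0.00433 in this selection was fixed by the separation with all libraries. The fitted log2 fold change was -0.24 ± 0.13 with all libraries (adjusted p = 0.583) and -0.13 ± 0.034 without mouse 12 (adjusted p = 0.188, with 0.359% of all genes called). Cerebellar markers of astrocytes summed to 3916 CPM in mouse 12, within the 3705 to 4110.5 of the other Gnb5-/- cerebella, against 4016 to 4214 in the wild-type ones. The part of the choroid plexus markers of mouse 12, given above, in its receptor values was not tested.

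Cerebellar Ntrk3 overlapped between genotypes. It was 116 CPM in that library, 296 to 374 in the other Gnb5-/- libraries and 271 to 357 in the wild-type ones. The log2 fold change was -0.12 ± 0.21 (adjusted p = 0.776) and became 0.043 ± 0.074 without mouse 12. In the hippocampus, where no library stood apart by its share of reads outside genes, Ntrk2 was 468 to 549 CPM in Gnb5-/- and 511 to 555 in wild-type mice, and Ntrk3 was 246 to 287 and 231 to 286. Their log2 fold changes were -0.070 (95% CI -0.16 to 0.018) and 0.056 (95% CI -0.056 to 0.17). With all libraries kept, these bound any change of the Trk transcripts more closely there than in the other tissues. Standard errors in cerebellum and cortex were of like size once the libraries of few reads outside genes were left out. Without wild-type mouse 7, the library with the most choroid plexus markers, the hippocampal fold changes were -0.083 ± 0.043 and 0.028 ± 0.050.

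Ngfr in the brain overlapped between genotypes in all 3 regions. Its Gnb5-/- levels were 1.54 to 4.35 CPM in cerebellum, 0.77 to 1.47 in hippocampus and 0.83 to 2.87 in cortex. The log2 fold changes were -0.056, -0.12 and -0.15 with standard errors of 0.22, 0.19 and 0.30. The lowest cerebellar and cortical values again came from mouse 12 and mouse 14, and without them the fold changes were 0.090 and -0.0048.

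The ligands in the brain overlapped between genotypes in every region. Bdnf in Gnb5-/- mice ran from 12.1 to 17.6 CPM (median 15.7) in cerebellum against 8.84 to 15.997 (median 13.2) in wild-type mice, a log2 fold change of 0.27 ± 0.14 (adjusted p = 0.583, exact permutation p = 0.0736), and 0.28 ± 0.13 without mouse 12 (adjusted p = 0.434). In hippocampus it ran from 26.4 to 46.7 CPM (median 33.45) against 27.8 to 35.4 (median 31.2), a fold change of 0.21 ± 0.11 (adjusted p = 0.696), with 2 Gnb5-/- mice, 12 and 3, above all wild-type values at 46.7 and 44.0 CPM. In cortex it ran from 18.4 to 25.6 CPM (median 24.6) against 20.0 to 25.4 (median 24.8), and the fold change of -0.033 had an interval from -0.27 to 0.21. Leaving out mouse 14, whose Bdnf was 25.1 CPM and thus within the range of the others, gave -0.098 ± 0.095. Ntf3 had fold changes of 0.16 ± 0.23 in cerebellum, 0.094 ± 0.15 in hippocampus and 0.35 ± 0.22 in cortex. The highest Ntf3 values of the Gnb5-/- groups came from mouse 12 in cerebellum (4.84 CPM) and mouse 14 in cortex (1.95 CPM). Without these libraries the fold changes were -0.049 ± 0.17 in cerebellum and 0.15 ± 0.17 in cortex.

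In the ventricles the mean of Ntrk2 was lower in both mutant genotypes without passing the test over all genes, at a level of few reads. It was 1.40 to 2.35 CPM (median 1.78) in Gnb5+/+, 0.84 to 1.57 (median 1.12) in Gnb5+/- and 0.93 to 1.52 (median 1.32) in Gnb5-/- mice, or 16 to 59 counts per library. The ranges overlapped, with exact permutation p = 0.00433 for each mutant genotype against Gnb5+/+, comparisons that share their 6 wild-type libraries. The log2 fold change was -0.57 ± 0.19 (adjusted p = 0.670) in Gnb5-/- and -0.69 ± 0.20 (adjusted p = 0.961) in Gnb5+/- mice. Gnb5-/- and Gnb5+/- mice were not separated (0.12 ± 0.20).

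Ventricular Ntrk3 and Ngfr had fold changes of -0.51 ± 0.27 and -0.43 ± 0.31 in Gnb5-/- mice, with overlapping groups (exact permutation p = 0.113 and 0.281). In Gnb5+/- mice Ngfr was 0.39 to 1.31 CPM against 0.70 to 2.14 in Gnb5+/+ mice, a fold change of -0.82 ± 0.32 (adjusted p = 0.961, exact permutation p = 0.0649). The lowest value, 0.39 CPM, was 7 counts in mouse 4, whose library had the fewest reads outside genes among the ventricles (2.85% against 4.41 to 5.71%). Summed markers of Schwann cells, which carry p75, were 67.7 to 77.0 CPM in Gnb5+/+, 61.3 to 88.8 in Gnb5+/- and 61.6 to 72.3 in Gnb5-/- ventricles. The groups overlapped, and the part of these cells in the Ngfr values was not tested.

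The ventricular ligands had fold changes of opposite sign, neither of which passed the test. Bdnf was 5.58 to 13.3 CPM (median 11.2) in Gnb5-/-, 10.9 to 16.5 (median 13.9) in Gnb5+/- and 7.98 to 18.0 (median 14.2) in Gnb5+/+ mice. The fold change against Gnb5+/+ was -0.44 ± 0.21 in Gnb5-/- mice (edgeR's quasi-likelihood test, adjusted p = 1.00, exact permutation p = 0.145) and -0.0031 ± 0.21 in Gnb5+/- mice. Ntf3 was 3.13 to 3.55 CPM (median 3.36) in Gnb5-/-, 3.20 to 5.92 (median 3.54) in Gnb5+/- and 2.26 to 3.72 (median 2.62) in Gnb5+/+ mice. Its fold change was 0.19 ± 0.16 in Gnb5-/- and 0.46 ± 0.16 in Gnb5+/- mice, the latter with an adjusted p of 0.961 and an exact permutation p of 0.0303. The highest Gnb5+/- value of Ntf3, 5.92 CPM against 3.20 to 4.41 in the others, came from mouse 4, the library of few reads outside genes that was lowest in Ngfr. Without it, an alternative chosen after seeing the data, the fold changes in Gnb5+/- mice were 0.33 ± 0.15 for Ntf3, -0.67 ± 0.31 for Ngfr and -0.64 ± 0.20 for Ntrk2 (adjusted p = 0.715, 0.715 and 0.708).

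In the atria Ntrk3 had the largest fold change of any member in Gnb5-/- against Gnb5+/+ mice, carried by 3 of the 6 mice. Wild-type values were 1.94 to 3.42 CPM (median 2.02), Gnb5+/- values 2.45 to 3.99 (median 3.16) and Gnb5-/- values 1.60 to 6.58 (median 3.97), where mice 12, 1 and 3 held 6.16, 6.58 and 5.53 CPM and mice 10, 14 and 5 held 2.27, 2.41 and 1.60. The fold change was 0.80 ± 0.30 in Gnb5-/- mice (adjusted p = 0.443, exact permutation p = 0.139) and 0.42 ± 0.30 in Gnb5+/- mice (adjusted p = 0.801, exact permutation p = 0.0390). Atrial Ntrk2 was highest in the same 3 mice, at 7.39, 5.49 and 3.62 CPM against 2.41, 1.58 and 1.22 in the others, and 2.14 to 6.38 in wild-type mice. Its fold change was 0.12 ± 0.39.

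Atrial Ngfr was high in a single library. Mouse 1, Gnb5-/-, held 6.60 CPM (290 counts), against 1.09 to 2.40 in the other 5 Gnb5-/- libraries, 0.89 to 2.04 in Gnb5+/+ and 1.02 to 2.01 in Gnb5+/- mice. The fold change was 0.75 ± 0.37 with this library (adjusted p = 0.640) and 0.10 ± 0.25 without it, whereas that of Ntrk3 was 0.62 ± 0.30 without it. The same library had the highest value among the 18 atrial libraries for 8 of 10 markers of autonomic neurons, chosen here after the Ngfr value was seen. Peripherin (Prph) was 3.66 CPM against at most 0.58 in the others, the nicotinic receptor subunit Chrna3 2.78 against at most 0.81, and the acetylcholine-synthesising enzyme Chat 0.91 against at most 0.073. Dbh, the noradrenaline-synthesising enzyme, was 19.4 CPM there, within the 14.2 to 29.7 of the others.

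**Figure D5:**
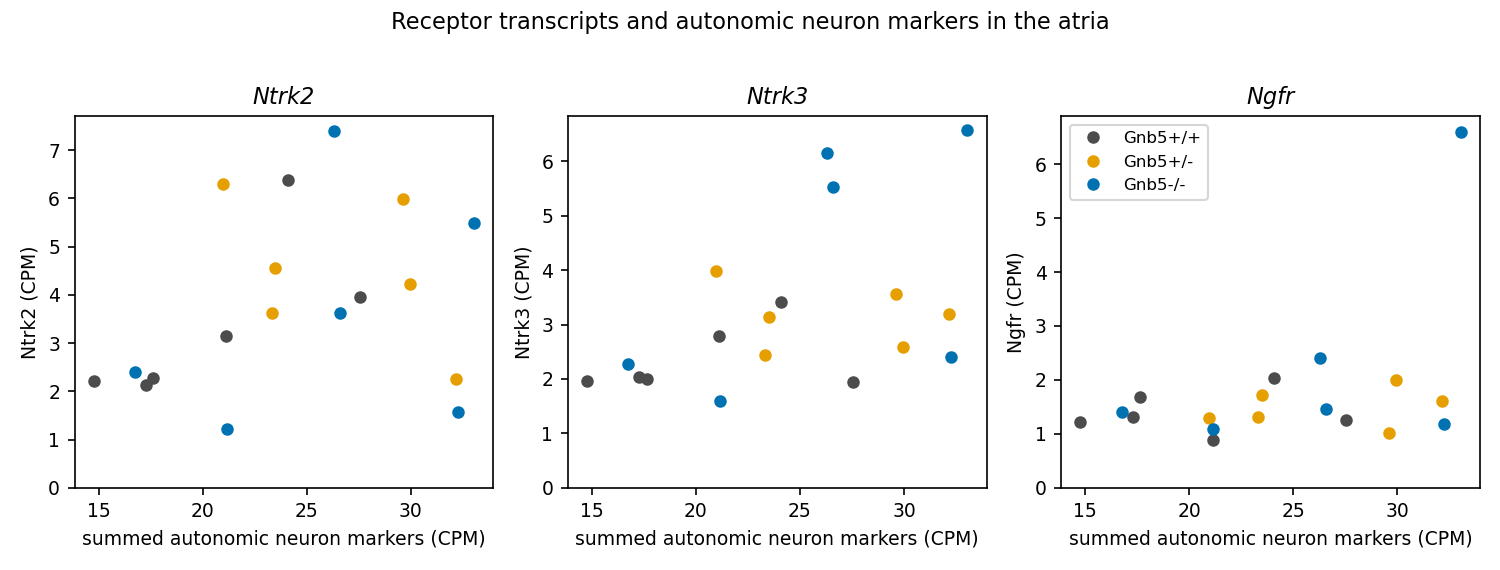
Ntrk2, Ntrk3 and Ngfr in CPM against the summed level of 10 markers of autonomic neurons, in each of the 18 atrial libraries, coloured by genotype. Among Gnb5-/- libraries (blue) the highest Ntrk3 and Ngfr values, 6.58 and 6.60, belong to the library with the highest marker sum (33.05), and the library of mouse 14, with a sum of 32.26, holds 2.41 and 1.19. Dbh makes up most of each sum (19.4 CPM in the library of 33.05, 14.2 to 29.7 in the others), so libraries of like sum can differ in the other markers.

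Summed over the list, with Dbh as the largest part, the autonomic neuron markers ran from 14.8 to 27.6 CPM in Gnb5+/+, 21.0 to 32.2 in Gnb5+/- and 16.8 to 33.05 in Gnb5-/- atria. Of the 10 markers 5 were abundant enough for edgeR's test in Gnb5-/- against Gnb5+/+ atria and none passed it, with 2 at an unadjusted p below 0.05 and a median log2 fold change of 1.92. These values include the library of mouse 1, the highest for 8 of the 10 markers, and are not given without it. Schwann cell markers summed to 95.2 to 117 CPM in Gnb5+/+ and 87.4 to 125.4 CPM in Gnb5-/- atria, the highest being that of mouse 1. The part of nerve tissue in the atrial receptor values was not tested.

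The means of the atrial ligands were lower in Gnb5-/- than in wild-type mice, and neither difference passed the test. Bdnf was 0.86 to 1.28 CPM in Gnb5-/-, 0.56 to 1.65 in Gnb5+/- and 0.62 to 1.94 in Gnb5+/+ mice, with fold changes of -0.46 ± 0.26 and -0.57 ± 0.27 in the mutant genotypes (adjusted p = 0.712 and 0.675). Ntf3 was 1.26 to 2.11, 1.08 to 3.73 and 1.14 to 2.91 CPM, with fold changes of -0.26 ± 0.27 and 0.18 ± 0.27. These levels rest on 18 to 113 counts per library, and the 95% intervals of the Gnb5-/- fold changes, -1.02 to 0.088 for Bdnf and -0.82 to 0.31 for Ntf3, include 0. Summed markers of ventricular myocardium, where Bdnf was higher, varied between atrial libraries. They ran from 109 to 1359.5 CPM (median 423) in Gnb5+/+, 77.4 to 718 (median 175) in Gnb5+/- and 160 to 478 (median 244) in Gnb5-/- atria. Wild-type ventricles held 13980 to 14884 CPM. The part of ventricular tissue in the atrial ligand values was not tested.

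No member passed the test in Gnb5+/- against Gnb5+/+ mice or in Gnb5-/- against Gnb5+/- mice by edgeR or DESeq2. Calls over all genes were rare there as well, at 0.0124 and 0.0202% in atria and ventricles for Gnb5+/- against Gnb5+/+, and 0.0494 and 0.0874% for Gnb5-/- against Gnb5+/-. No member's groups were without overlap there, against 0.192 and 0.155% of all genes in atria and ventricles for Gnb5+/- against Gnb5+/+ (0.068% downward in atria), and 0.464 and 1.04% for Gnb5-/- against Gnb5+/-. At an unadjusted p below 0.05, edgeR had Bdnf in Gnb5+/- atria, Ntrk2, Ngfr and Ntf3 in Gnb5+/- ventricles, and no member between Gnb5-/- and Gnb5+/-, where DESeq2 had 1 in ventricles. By edgeR 7.22 and 4.84% of all genes had such a p in atria and ventricles for Gnb5+/- against Gnb5+/+. For Gnb5-/- against Gnb5+/- these shares were 4.86 and 8.79%. Whether the fold change of a member differed between tissues was tested with an interaction term and the mouse as a block, and 0 of 5 members passed in each of the 4 pairs of tissues tested (by DESeq2 also 0 of 5), against 0.00622% of all genes for ventricles against atria, 0.0258% for hippocampus against cerebellum, 0.0103% for cortex against cerebellum and 0% for cortex against hippocampus. The only member with an unadjusted p below 0.05 was Ntrk3 between ventricles and atria (log2 difference of effects -1.15 ± 0.43, adjusted p = 0.973). For this pair of tissues 4.57% of all genes had such a p. The Ntrk3 fold change was positive in Gnb5-/- atria and negative in Gnb5-/- ventricles, and neither passed the test. For Ntrk3 the fold change of cortex minus that of hippocampus was -0.61 ± 0.34 (adjusted p = 0.641), and by -0.36 ± 0.24 without the cortical library of mouse 14.

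Beside the members, Ntf5, which encodes neurotrophin 4, a second ligand of TrkB, was at most 1.101 CPM in any wild-type library, with 0 counts in 3 of the 6 wild-type cerebella.

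The genes that act on neurotrophins or downstream of their receptors were described by lists, and edgeR called none of them in Gnb5-/- against Gnb5+/+ mice in any tissue. Of 16 genes of neurotrophin processing and release 11 to 13 were tested, with medians between -0.13 and 0.047. The 51 or 52 tested genes of the Trk adaptors and kinase cascades had medians between -0.094 (cortex) and 0.019 (hippocampus), and the 30 to 32 partners of p75 and members of its death pathway had medians between -0.042 and 0.020. The median of all genes lay between -0.0059 and 0.0058 in the 5 tissues. Of the 52 kinase cascade genes 36 had a negative fold change in cortex and 37 in cerebellum, 0 of them with an unadjusted p below 0.05, and 35 a positive one in hippocampus, 2 of them with an unadjusted p below 0.05. Without mouse 12 the cerebellar genes were 26 negative and 26 positive (median -0.0027), and without mice 14 and 3 the cortical genes were 16 negative and 36 positive (median 0.018). In cerebellum 8 of the 52 then had an unadjusted p below 0.05, and in cortex 1. Over all genes, 2014 of 17255 in cerebellum and 875 of 18269 in cortex had such a p in these selections. In the same selections the medians of the processing genes were 0.037 in cerebellum and 0.0036 in cortex, and those of the p75 partners 0.0055 and 0.0070.

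Genes that respond to neuronal activity and to BDNF had larger fold changes in the heart, most of them negative. In atria 17 of 18 tested genes were negative and 11 had an unadjusted p below 0.05, with a median log2 fold change of -0.77, where 8.15% of all genes had such a p. In ventricles 13 of 17 were negative and 9 had an unadjusted p below 0.05, with a median of -0.62, against 4.78% of all genes. None passed an adjusted p of 0.05 (smallest 0.227 in atria and 0.279 in ventricles). The smallest p belonged to genes picked here with their values in view, the nuclear receptor gene Nr4a2 in atria (-2.16 ± 0.60) and Nr4a1 in ventricles (-2.13 ± 0.58), both of which are induced within minutes of many stimuli. The medians in the brain were -0.11 in cerebellum, 0.028 in hippocampus and -0.18 in cortex, and they were -0.17 in cerebellum without mouse 12, -0.31 in cortex without mouse 14 and -0.32 without mice 14 and 3. In that last selection 23 of 26 genes were negative and 11 had an unadjusted p below 0.05, with no call (smallest adjusted p = 0.458). Of all 18269 genes tested in it, 875 had such a p. In hippocampus the smallest p of the list, picked in the same way, belonged to the interneuron peptides Npy (-0.52 ± 0.10, adjusted p = 0.0947), Sst (-0.62 ± 0.13, adjusted p = 0.102) and Cort (-0.74 ± 0.17, adjusted p = 0.133).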

How the data were processed

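Total RNA of 72 tissue samples from 18 mice was sequenced as stranded single-end reads. The authors trimmed the reads with Cutadapt 1.8, aligned them to GRCm38 with STAR 2.5.3a and deposited raw counts per gene made with HTSeq 0.9.1. Whether strand was used in counting is not given in the sources used here. Groups and mouse numbers came from the labels, and 53620 of 53715 identifiers matched GENCODE M21. The members and gene lists were chosen with earlier results of these data known. Counts were fitted per tissue with edgeR 4.0.16 in R 4.3.3 (quasi-likelihood test, TMM, genes filtered at a count minimum of 10), with Benjamini-Hochberg adjustment over all genes tested and a threshold of 0.05. Wild-type tissues and differences of effect between tissues were fitted with a term for the mouse, whose number in the labels joins its tissues. For single members an exact permutation test (two-sided) was run on log2 CPM with a prior count of 2. The genes named by rule were the 5 members, Ntf5, and for each member the 3 protein-coding genes of highest Pearson r. The rule also covered any listed gene that passed edgeR's test in Gnb5-/- against Gnb5+/+ mice, and none did. Single genes of the activity and BDNF-responsive list and single markers of autonomic neurons were named outside the rule, with values in view. Alternatives were DESeq2 1.42.0, other scalings and filters, a replicate block and the omission of each library. The procedure was tested on simulated data. Errors are SD for levels and SE for fold changes. Each replicate is a different mouse. Promoter sequences are those of RefSeq on GRCm38.p6. Some items covered by the rule are not reported here.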

Additional observations from a re-analysis of the deposited data

Results flagged for a closer look

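On the scale of log2 CPM, a single library lay farther from the rest than Dixon's criterion allows in 5 of 60 groups of a member and 6 mice. The levels below are printed as CPM, on which the criterion was not applied. Chance alone marks about 1 group in 20. Both Trk receptors were low in the cerebellum of Gnb5-/- mouse 12, with Ntrk2 at 166.21 CPM against 299.46 to 321.02 in the other Gnb5-/- cerebella and Ntrk3 at 116.12 against 295.68 to 373.87. Ntrk3 was low in the cortex of Gnb5-/- mouse 14, at 40.37 CPM against 107.38 to 187.58. Ngfr was high in the ventricles of Gnb5-/- mouse 10, at 1.9891 CPM against 0.80575 to 1.132. Bdnf was low in the cortex of wild-type mouse 15, at 19.969 CPM against 24.275 to 25.38.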

How the results depend on the processing

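The number of members called in Gnb5-/- against Gnb5+/+ mice was 0 under every alternative run, and 0 to 0 as each library was left out. Ngfr in ventricles gave no value where 10 counts were required in every library. The number of all genes called went from 41, 28, 14, 29 and 10 in atria, ventricles, cerebellum, hippocampus and cortex to 113, 62, 63, 110 and 35 with DESeq2, to 20 in atria with only the 2 genotypes fitted, and to 6 in cortex with 10 counts in every library. It was 26 in cortex without Gnb5-/- mice 14 and 3, an alternative chosen after seeing the data. Leaving out each library gave 24 to 62 in atria, 17 to 41 in ventricles, 9 to 62 in cerebellum (62 without Gnb5-/- mouse 12 and 30 without wild-type mouse 15), 21 to 37 in hippocampus and 8 to 22 in cortex (22 without Gnb5-/- mouse 14 and 20 without wild-type mouse 15). Within a tissue the replicate number joins different mice, whose deviations correlated between -0.198 and 0.0956, with 0 of 6 pairs over 0.1 in any tissue. With the replicate block the counts were 5 in cerebellum, 19 in hippocampus and 6 in cortex, Ntrk2 in atria turned to -0.049, and no member was called.

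Among wild-type tissues, members called went from 3 to 5 for ventricles against cerebellum on library size alone (also chosen after seeing the data) and from 4 to 2 for hippocampus against cortex with DESeq2. The log2 differences whose sign turned had not passed the test as reported, and those of Bdnf and Ntf3 in ventricles against cerebellum and of Ngfr in both heart tissues against hippocampus passed it on library size alone. As libraries were left out, the fold change of Gnb5-/- against Gnb5+/+ mice ranged from -0.22 (without mouse 12, and -0.041 without mouse 1) to 0.40 for Ntrk2 in atria, from -0.20 to 0.043 (without mouse 12) for Ntrk3 in cerebellum, from -0.15 to 0.090 (without mouse 12, and 0.042 without wild-type mouse 15) for Ngfr in cerebellum, from -0.049 (without mouse 12) to 0.28 for Ntf3 in cerebellum, from -0.030 (without mouse 5) to 0.16 for Ntf3 in hippocampus, from -0.26 to 0.037 (without wild-type mouse 8) for Ngfr in cortex and from -0.098 to 0.029 (without mouse 1, and 0.0083 without mouse 5) for Bdnf in cortex. Ngfr in cortex was 0.082 without mice 14 and 3. For wild-type tissues the turned values were those of Ngfr in atria against ventricles (0.34 on library size alone), atria against hippocampus (-0.0083 with RLE scaling, -0.015 with DESeq2, -0.00066 without a filter, -0.55 on library size alone) and ventricles against hippocampus (-0.89 on library size alone), and of Bdnf (-0.055 without a filter, -1.05 on library size alone) and Ntf3 (-0.061 and -1.05) in ventricles against cerebellum. For differences of the fold change between tissues they were, without the replicate block, Bdnf between ventricles and atria (0.030) and Ntf3 between hippocampus and cerebellum (-0.062). As libraries were left out, these differences ranged from -0.032 (cerebellum of mouse 12) to 0.22 for Ntrk3 between hippocampus and cerebellum, and, with the highest value without the cortex of mouse 14, from -0.19 to 0.10 for Ntrk2 and -0.23 to 0.15 for Ngfr between cortex and cerebellum and from -0.031 to 0.18 for Ngfr between cortex and hippocampus. The causes were not tested. Over all alternatives, 13 calls of a member between wild-type tissues were lost and 5 were gained, 4 of them on library size alone. In the heart the receptors had 7 to 290 counts per library, and counting error was not separated from the spread between mice.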
